A study of Mus musculus with 2 samples.

Results

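Glutathione, peroxiredoxin, thioredoxin and metal-binding genes together form the thiol and antioxidant defence of the cell, and many of them are targets of the transcription factor NRF2. They were selected by gene symbol from the deposited count table, which gave 66 of 17260 genes. The set held 21 non-microsomal glutathione S-transferases, 3 microsomal ones, 6 glutathione peroxidases, and 6 peroxiredoxins with sulfiredoxin. It also held 10 thioredoxin and glutaredoxin system genes, 3 superoxide dismutases with catalase, and 4 genes of glutathione synthesis and recycling. The rest were 6 NRF2 pathway regulators and classic targets, and 5 metallothioneins and ferritins. Symbols alone decided membership, but the set was chosen with earlier results of these data known.

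The RNA came from mouse embryonic fibroblasts (MEFs), which are connective tissue cells grown out of dissociated embryos. Both cultures were C57BL/6, prepared at embryonic day 13.5 and kept in DMEM with 10% FBS, and 1 ug of total RNA entered each library. There was 1 library of genotype WT and 1 labelled Ahi1-/-, and paired values below are given in that order. The gene Ahi1 encodes a protein of the ciliary transition zone, and the comparison asks how its loss alters the fibroblast transcriptome. The sources used here give neither the targeted exons nor the passage, nor how many embryos a culture came from.

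With no replicates there is no test, and every difference below compares these libraries, not the genotypes. The intervals given are exact 95% intervals (Clopper-Pearson) that cover counting error only. Column heads read CON and EXP, and every direction rests on reading them as WT and Ahi1-/-. Ahi1 itself had 410 counts in WT and 370 in the other library, so its level offers no check of the genotype.

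Glutathione is a small peptide whose thiol group reduces peroxides and is joined to foreign or toxic compounds. Transferases and most glutathione peroxidases use it directly, while most peroxiredoxins draw their electrons from thioredoxin. NRF2 (encoded by Nfe2l2) is bound by KEAP1 and degraded in unstressed cells. When KEAP1 is modified by oxidants or electrophiles, NRF2 accumulates and binds antioxidant response elements near many of these genes. Metallothioneins bind zinc and copper, and ferritins store iron.

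The redox genes did not move as 1 group. Values in the text are expected counts in each library, the deposited length-normalised level (TPM, a transcript's share of all transcripts) and the log2 ratio of scaled counts, library labelled Ahi1-/- over WT. A gene was called higher or lower when its ratio reached 2-fold and 1 library or both held 50 counts or more. Of 53 members with that many counts, 9 were higher, where 16.0% of all 12075 such genes were, and 4 were lower (7.55%, against 10.3% of all genes). Both counts lie near the background. The median log2 ratio of the 62 members with a sum of 10 or more counts, called measured below, was 0.01, against -0.01 over all genes. Scaling by total counts alone gave 8 higher and 6 lower. The summed level of all 66 members was 15637 TPM in WT and 14868 TPM in the library labelled Ahi1-/-. Which members were abundant differed, as described by role below.

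**Figure D1:**
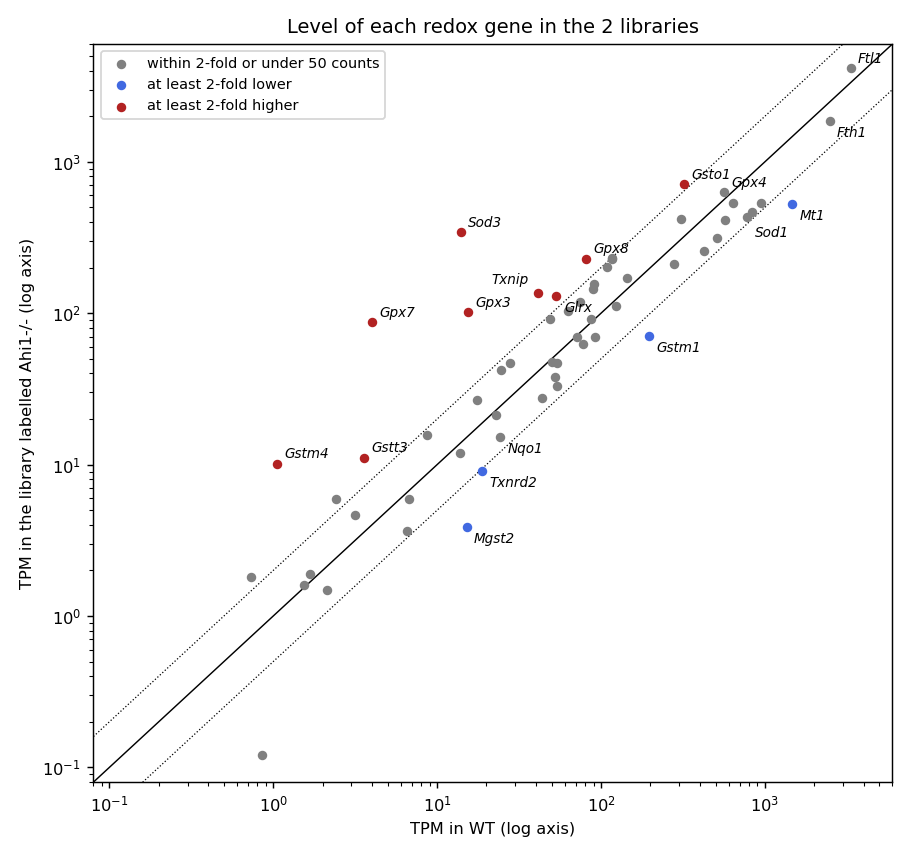
Level of each measured member in WT (x axis) and the library labelled Ahi1-/- (y axis), both in TPM on log axes. The solid line marks equality and the dotted lines 2-fold. Gsta1 and Mt3, at 0 TPM in 1 library, are left off. Sod3 and Gpx7 lie farthest above the line, and Mt1 and Gstm1 are the abundant genes more than 2-fold below it.

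Extracellular superoxide dismutase had the largest ratio of all members. Sod3, whose secreted enzyme binds heparan sulfate in the matrix and removes superoxide there, had 262 and 6258 counts (14.01 and 343 TPM). This was 23.7-fold higher, with a log2 ratio of 4.57 (4.39 to 4.75). Sod1, the abundant copper and zinc enzyme of the cytosol, had 4301 and 2327 counts (781 and 433 TPM), a log2 ratio of -0.90 (-0.97 to -0.83), just inside 2-fold. Sod2, the manganese enzyme of mitochondria, had 3264 and 2393 counts and a log2 ratio of -0.46 (-0.54 to -0.38). The summed level of the 3 dismutases was nearly equal, at 887 TPM in WT and 845 TPM in the other library, but its make-up was not. Sod3 supplied 1.58% of it in WT and 40.6% in the other library, while the share of Sod1 was 88.0% and 51.2%. Catalase, which breaks down hydrogen peroxide in peroxisomes, was level (Cat, 1675 and 1585 counts, log2 -0.09, -0.19 to 0.01).

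Of 5 glutathione peroxidases with enough counts, 3 were at least 2-fold higher and 0 were lower, where 16.0% and 10.3% of all genes were. Gpx7, an enzyme of the endoplasmic reticulum that acts in oxidative protein folding, had 44 and 927 counts (4.03 and 87.0 TPM). This was 20.9-fold higher, with a log2 ratio of 4.38 (3.95 to 4.85). Its membrane-bound relative Gpx8, in the same compartment, had 719 and 1998 counts and was 2.75-fold higher (log2 1.46, 1.34 to 1.59). Gpx3, the secreted plasma enzyme, had 213 and 1364 counts and was 6.35-fold higher (log2 2.67, 2.46 to 2.88). The abundant intracellular enzymes were closer to level. Gpx4, which reduces lipid hydroperoxides in membranes, had 3921 and 4290 counts (562 and 630 TPM, log2 0.12, 0.05 to 0.18), and Gpx1, the main cytosolic enzyme, had 2889 and 3805 (log2 0.38, 0.31 to 0.45). Gpx2, the epithelial form, stayed low with 30 and 43 counts. All 6 ratios lay above 0 under each scaling of the libraries, but that of Gpx4 was -0.09 once the median of its chromosome was subtracted. The summed level of the family was 975 TPM in WT and 1469 TPM in the other library.

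The higher peroxidases and Sod3 are secreted or lie in the endoplasmic reticulum. A grouping of dismutases, peroxidases, peroxiredoxins, thioredoxins and glutaredoxins by compartment, made after the values were seen and so a description, put 5 members there, and 4 of them (Sod3, Gpx7, Gpx3 and Gpx8) were at least 2-fold higher. The summed level of all 5 was 392 TPM in WT and 972 TPM in the library labelled Ahi1-/-. The fifth was Prdx4, the peroxiredoxin of the endoplasmic reticulum, with 2402 and 1778 counts (log2 -0.45, -0.54 to -0.36). The transferases were not grouped, and Mgst2, which also lies in the endoplasmic reticulum, was 4.44-fold lower. Of 6 mitochondrial members, 0 were higher and 1 was lower, with a summed level of 495 and 500 TPM. Of 8 mainly cytosolic members, 1 was higher and 0 were lower, with a summed level of 3071 and 2636 TPM. Over all genes with enough counts, 16.0% were higher and 10.3% lower, so the mitochondrial and cytosolic counts do not stand out. Gpx2, Gpx4, Prdx5, Glrx3 and Txnrd3 were placed in none of these groups, and none of them was called. Txnip, Srxn1 and Cat were not grouped either. Of these, Txnip was called, at 3.17-fold higher.

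**Figure D2:**
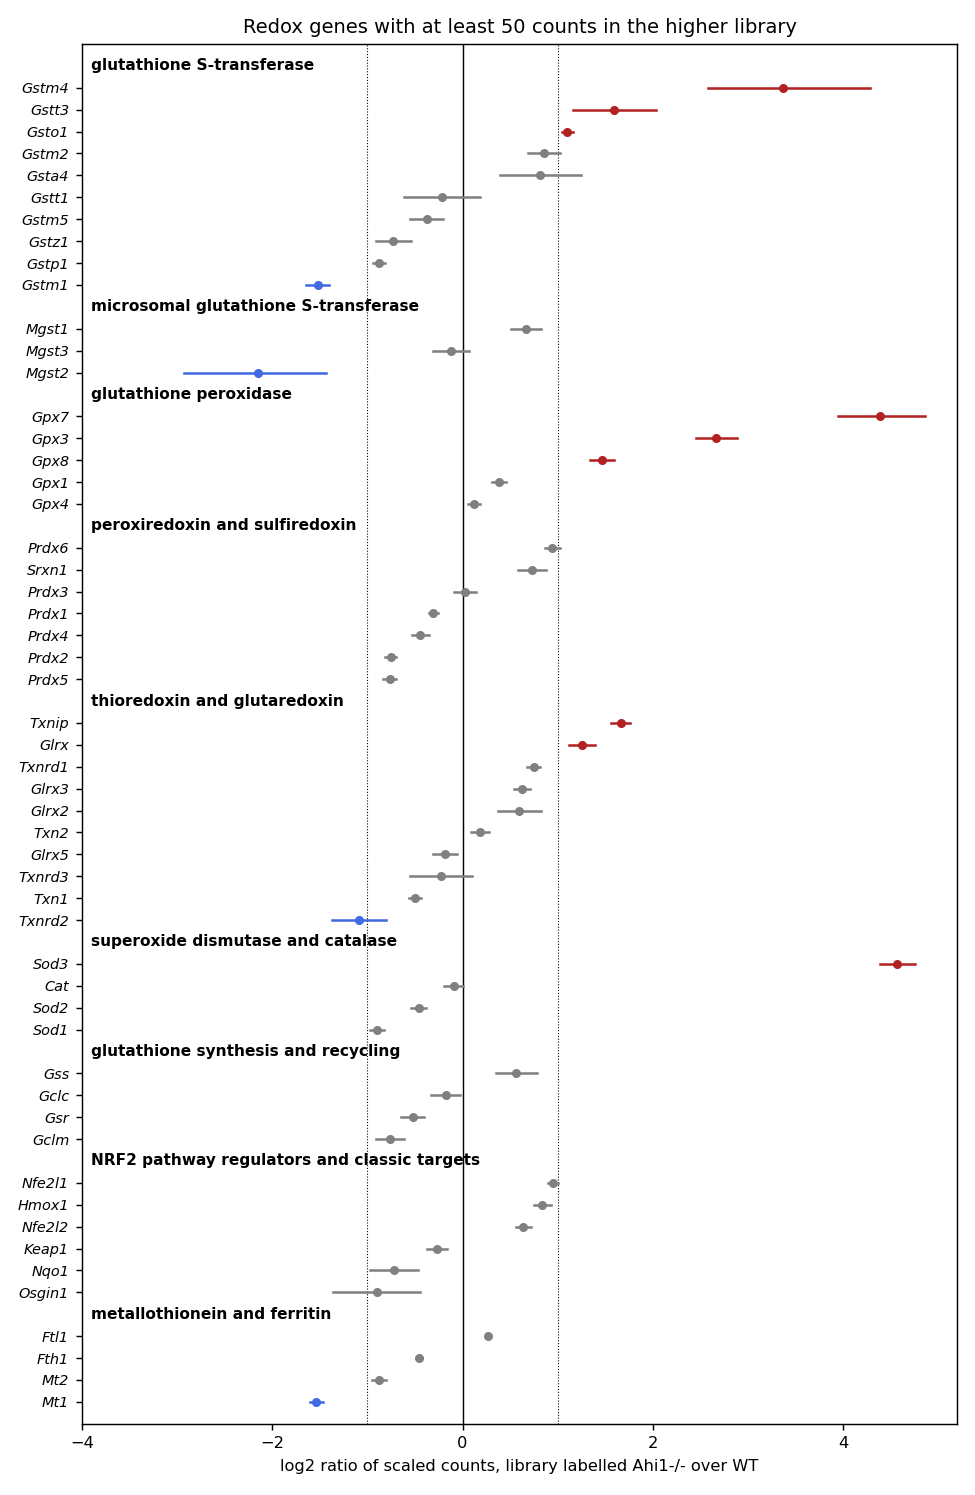
Log2 ratio of scaled counts (x axis, library labelled Ahi1-/- over WT) for the 53 members with 50 counts or more in 1 library or both, by family. Points are ratios, bars are 95% counting intervals, and dotted lines mark 2-fold. Red marks the 9 higher and blue the 4 lower members. Both directions occur within the transferases and the thioredoxin system.

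Peroxiredoxins were abundant and all lay within 2-fold. Prdx1, a cytosolic enzyme that reduces hydrogen peroxide, was the most counted with 8240 and 6727 (643 and 538 TPM, log2 -0.31, -0.35 to -0.26). Prdx2, a cytosolic enzyme that is also a major protein of red blood cells, had 6671 and 3990 counts (log2 -0.75, -0.81 to -0.70). Prdx5, found in mitochondria, peroxisomes and cytosol, had 4832 and 2864 (log2 -0.77, -0.83 to -0.70). Mitochondrial Prdx3 was level at 1138 and 1170 counts (log2 0.03, -0.09 to 0.15). Prdx6, the 1-cysteine member that takes electrons from glutathione instead of thioredoxin, went the other way with 1975 and 3832 counts (log2 0.94, 0.86 to 1.02). Sulfiredoxin, which repairs overoxidised peroxiredoxins and is a NRF2 target, had 638 and 1068 counts (Srxn1, log2 0.73, 0.59 to 0.87). The 6 peroxiredoxins summed to 2055 TPM in WT and 1642 TPM in the other library, and the share of Prdx6 in that sum was 5.69% and 14.2%.

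In the thioredoxin and glutaredoxin system 2 of 10 members were higher and 1 lower, near the 16.0% and 10.3% of all genes. Txnip, an arrestin-like protein that binds thioredoxin and restrains glucose uptake, had 1068 and 3412 counts (41.5 and 136 TPM). It was 3.17-fold higher, with a log2 ratio of 1.66 (1.56 to 1.76). Glrx, the cytosolic glutaredoxin that removes glutathione from proteins, had 633 and 1522 counts and was 2.38-fold higher (log2 1.25, 1.12 to 1.39). Thioredoxin itself was lower but within 2-fold (Txn1, 5345 and 3809 counts, log2 -0.50, -0.56 to -0.44). The reductases that recharge thioredoxin diverged. Cytosolic Txnrd1, a NRF2 target, had 2842 and 4819 counts (log2 0.75, 0.68 to 0.82), whereas mitochondrial Txnrd2 had 325 and 154 and was 2.13-fold lower (log2 -1.09, -1.38 to -0.81). Txnrd2 is 1 of 17 members with fractional counts, where reads were divided by estimation, and it lay inside 2-fold once the median of its chromosome was subtracted. Mitochondrial thioredoxin was near level (Txn2, 1675 and 1920 counts, log2 0.18). Of the other glutaredoxins, Glrx2 (log2 0.60), Glrx3 (0.62) and Glrx5 (-0.19) lay within 2-fold, as did Txnrd3 (-0.23).

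Transferases that join glutathione to electrophiles differed isoform by isoform. Gstm1, a mu-class enzyme and a NRF2 target, had 2296 and 806 counts (197 and 70.7 TPM). It was 2.87-fold lower, with a log2 ratio of -1.52 (-1.64 to -1.41). Its neighbour Gstm2 had 449 and 821 counts (48.8 and 91.4 TPM, log2 0.86, 0.69 to 1.03), and Gstm4 had 14 and 146 (log2 3.37, 2.58 to 4.28), 10.3-fold higher. Gstm1 thus supplied 60.1% of the mu-class level in WT and 29.8% in the other library, and Gstm2 14.9% and 38.6%. The mu genes lie side by side on chromosome 3 of assembly GRCm38.p6 and resemble each other, and 6 of the 7 had fractional counts, so the split between single isoforms is uncertain. The class as a whole summed to 327 TPM and 237 TPM.

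Among the other non-microsomal transferases, the abundant pi and omega genes went opposite ways. Gstp1, the pi-class enzyme of many dividing cells, had 5404 and 2970 counts (830 and 467 TPM, log2 -0.88, -0.94 to -0.81), while Gsto1, an omega-class enzyme with glutaredoxin-like chemistry, had 3407 and 7376 (322 and 714 TPM). Gsto1 was 2.15-fold higher (log2 1.10, 1.04 to 1.16), but 0.99 with scaling by total counts, which is inside 2-fold. Gstp1 made up 53.3% of the summed non-microsomal transferase level in WT and 31.2% in the other library, and Gsto1 20.7% and 47.7%. The sum of all 21 was nearly equal, at 1556 and 1497 TPM. Gstp1 and its near copy Gstp2 (10 and 10 counts) both had fractional counts, so the split between them is uncertain. The theta-class Gstt3 had 61 and 185 counts and was 3.01-fold higher (log2 1.59, 1.16 to 2.03), and Gstt1 had 114 and 99 (log2 -0.22). Gstz1, which acts in tyrosine breakdown, had 656 and 400 counts (log2 -0.73, -0.91 to -0.54), Gstm5 631 and 490 (log2 -0.38), and alpha-class Gsta4, which clears lipid aldehydes, 74 and 131 (log2 0.81, 0.39 to 1.24). The remaining transferases had fewer than 50 counts in both libraries: Gstk1 (20 and 48), Gsto2 (25 and 17), Gstm7 (20 and 21), Gstt2 (9 and 23), Gstm6 (10 and 1), Gsta1 (0 and 10), Gsta3 (0 and 6), Gstm3 (0 and 4), Gstt4 (4 and 0) and Gsta2 (1 and 2).

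Membrane-bound transferases were split as well. Mgst2, an endoplasmic reticulum enzyme that can make the lipid mediator leukotriene C4, had 88 and 20 counts and was 4.44-fold lower (log2 -2.15, -2.93 to -1.44). Mgst1, the most abundant of the 3, had 532 and 853 (62.5 and 103 TPM, log2 0.67, 0.51 to 0.83), and Mgst3 had 493 and 458 (log2 -0.12).

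**Figure D3:**
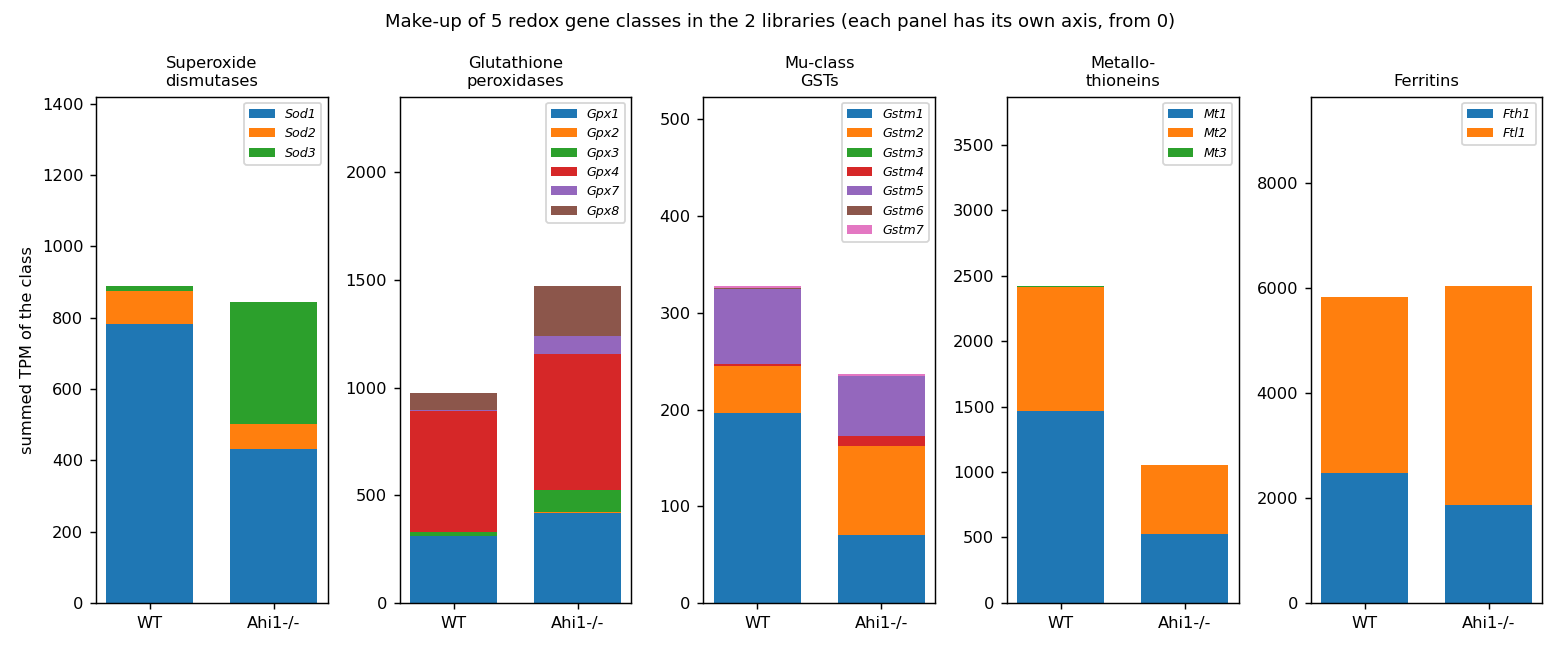
Summed level in TPM (y axis, from 0, with its own scale in each panel) of 5 classes in the WT library and the one labelled Ahi1-/-, with each gene as a stacked segment. The dismutase totals are similar while Sod3 is 1.58% of the first and 40.6% of the second, and the metallothionein total is 2418 TPM in WT and 1057 TPM in the other.

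Metallothioneins were lower as a class, from 2418 TPM in WT to 1057 TPM in the library labelled Ahi1-/-. Mt1 was among the most abundant members in WT, with 6803 counts there and 2368 in the other library (1467 and 525 TPM), 2.90-fold lower (log2 -1.54, -1.60 to -1.47). Mt2, beside it on chromosome 8, had 4504 and 2469 counts (948 and 532 TPM, log2 -0.88, -0.95 to -0.81). Mt3, the brain form, was low, with 14 and 0 counts. Ferritin was the most abundant product of the whole set. Its light chain Ftl1 had 28805 and 35061 counts (3339 and 4162 TPM, log2 0.27, 0.25 to 0.29), and its heavy chain Fth1, which oxidises iron for storage, 20796 and 15282 (2486 and 1871 TPM, log2 -0.46, -0.49 to -0.43). The pair summed to 5825 and 6034 TPM, with the heavy chain at 42.7% and 31.0% of the sum.

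The Mt2 promoter is printed because metallothionein genes are controlled through metal response elements, which the zinc sensor MTF1 binds. The element core was searched as TGCACNC or TGCGCNC on both strands of the 250 bases before the annotated start, in the sequence table of RefSeq for build GRCm38.p6. Capitals mark the matches, of which those on the minus strand read in reverse complement.
Mt2: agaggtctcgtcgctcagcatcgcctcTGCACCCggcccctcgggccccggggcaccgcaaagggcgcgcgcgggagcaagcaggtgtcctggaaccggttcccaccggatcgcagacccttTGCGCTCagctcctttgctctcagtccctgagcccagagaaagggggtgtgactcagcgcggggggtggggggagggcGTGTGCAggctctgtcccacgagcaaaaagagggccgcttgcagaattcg
This stretch is chr8:94172368-94172617 on the plus strand and holds 3 matches. Of 19827 gene starts with such a window, 19.1% held at least 1 match and 1.06% held 3 or more. Among the 43 members with a window at their outermost start, 11 held at least 1 match, and Mt2 was the 1 member with 3. A match describes letters only and is not a shown binding site.

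Of the 4 genes for making and recycling glutathione, 3 had ratios below 0 and Gss a ratio above 0, and none passed 2-fold. Glutamate-cysteine ligase catalyses the limiting step of synthesis. Its catalytic subunit Gclc had 719 and 641 counts (log2 -0.18, -0.33 to -0.02), and its modifier Gclm 1007 and 600 (log2 -0.76, -0.91 to -0.61). Gss, which adds glycine to finish the peptide, had 312 and 466 (log2 0.57, 0.36 to 0.78). Gsr, the reductase that returns oxidised glutathione to its thiol form, had 1289 and 904 counts (52.5 and 37.7 TPM, log2 -0.52, -0.65 to -0.40), the most of the 4.

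Classic NRF2 targets did not share a direction. Nqo1, a quinone reductase often used as a readout of NRF2, had 342 and 210 counts (24.3 and 15.3 TPM, log2 -0.72, -0.97 to -0.46). Osgin1, a growth inhibitor induced by oxidative stress, had 118 and 64 (log2 -0.90, -1.36 to -0.44). Hmox1, which degrades heme and is repressed by BACH1, had 1559 and 2807 counts (109 and 201 TPM, log2 0.84, 0.75 to 0.93). Thus Nqo1, Osgin1, Gclm, Gsr and Gstm1 were on the lower side, and Hmox1, Srxn1 and Txnrd1 on the higher side. Apart from Gstm1, all of these lay within 2-fold.

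The members Nfe2l2, Nfe2l1 and Keap1, regulators of the pathway, lay within 2-fold. Nfe2l2 had 2048 and 3214 counts (89.3 and 144 TPM, log2 0.64, 0.56 to 0.72). Nfe2l1, a related factor that controls proteasome genes, was the most counted of this group with 4334 and 8439 (116 and 228 TPM, log2 0.95, 0.90 to 1.00), just short of 2-fold. Keap1 had 1669 and 1400 (log2 -0.27, -0.37 to -0.16). Of the 16 genes on a list of KEAP1 and NRF2 regulators, 3 are the members just described (median log2 ratio of the list -0.05). Of the 15 with enough counts, 0 were higher and 2 were lower (13.3%), against 16.0% and 10.3% of all genes. One was Palb2, a DNA repair protein that binds KEAP1 (240 and 93 counts, 2.60-fold lower). The other was Btrc, a ubiquitin ligase subunit that can target NRF2 (1185 and 577, 2.07-fold lower). Btrc lies on chromosome 19, where the other genes had a median log2 ratio of -0.62. The NRF2 partner genes gave log2 ratios of -0.07 for Mafg, 0.04 for Maff and 0.55 for Mafk. The competitor genes went opposite ways, with 0.90 for Bach1 and -0.98 for Bach2 (349 and 179 counts).

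Antioxidant response element cores upstream of members were searched because NRF2 binds there. The core was spelled TGACNNNGC and searched on both strands of the same 250 bases. It was present at 6 of 43 members (13.95%), against 9.68% of all 19827 gene starts. Each is shown with up to 20 bases on either side, read along the gene, with the match in capitals.
Sod1: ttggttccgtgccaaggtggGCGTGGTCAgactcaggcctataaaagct
Mt2: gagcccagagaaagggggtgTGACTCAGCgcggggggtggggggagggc
Gstm5: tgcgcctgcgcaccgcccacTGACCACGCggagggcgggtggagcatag
Prdx1: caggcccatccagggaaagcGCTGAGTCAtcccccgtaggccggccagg
Nfe2l2: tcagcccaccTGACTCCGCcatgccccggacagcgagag
Mgst1: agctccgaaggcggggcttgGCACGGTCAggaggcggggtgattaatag
These stretches are chr16:90220686-90220734, chr8:94172519-94172567, chr3:107895792-107895840 and chr4:116685446-116685494 on the plus strand, chr2:75704875-75704913 on the minus strand, and chr6:138140451-138140499 on the plus strand. The matches of Sod1, Prdx1 and Mgst1 lie on the opposite strand of the gene. All 6 genes lay within 2-fold, and none of the 8 called members with a window held a match. The first 4 had log2 ratios below 0 (-0.90, -0.88, -0.38 and -0.31), and the other two had ratios above 0 (0.64 and 0.67). The 250 bases before Nqo1, Srxn1 and the outermost start of Txnrd1 held no match, which says only that these letters are not in that window. The other 23 members had no window at their outermost start in the table.

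Chromosome of origin moved with the ratios. The other genes of chromosomes 8, 17 and 19 had median log2 ratios of -0.35, -0.30 and -0.62, the lowest of all chromosomes, and the others ran from -0.21 (chromosome 3) to 0.29 (chromosome 1). On those 3 chromosomes lie 16 of the 66 members, among them Mt1, Mt2, Prdx2, Gsr, Nqo1, Hmox1 and Osgin1 on chromosome 8, Sod2 on 17, and Gstp1, Gsto1, Prdx3, Prdx5 and Fth1 on 19. Of the 16, 13 had ratios below 0, where 1386 of all 1986 measured genes there did. Those below 0 include Gstp2 (10 and 10 counts), Gsto2 (25 and 17) and Mt3 (14 and 0), which had few counts. The median of the 16 was -0.64, against -0.40 for all genes there. At least 2-fold lower was 1 of the 13 with enough counts (Mt1, 7.69%), against 20.3% of all genes on these chromosomes. The 46 measured members elsewhere had a median of 0.45, against 0.05 for all genes elsewhere, and 8 of 40 with enough counts were higher, near the 16.9% of all genes elsewhere.

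With the median of the chromosome subtracted, the members on these chromosomes spread over a range, with no clear division between them. Gstp1 lay -0.25 from its chromosome, Prdx5 -0.15, Gsr -0.17 and Sod2 -0.16, and Fth1 moved from -0.46 to 0.16. Mt1 stayed low at -1.18, while Nqo1 lay at -0.37, Prdx2 at -0.40, Mt2 at -0.53 and Osgin1 at -0.54. Before subtraction, Nqo1 and Prdx2 were inside the middle 50% of the other chromosome 8 genes (-0.82 to 0.17). Hmox1 stood 1.19 and Gsto1 1.72 above their chromosomes, and Prdx3 0.65. What lies behind the lower levels along these chromosomes was not tested.

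**Figure D4:**
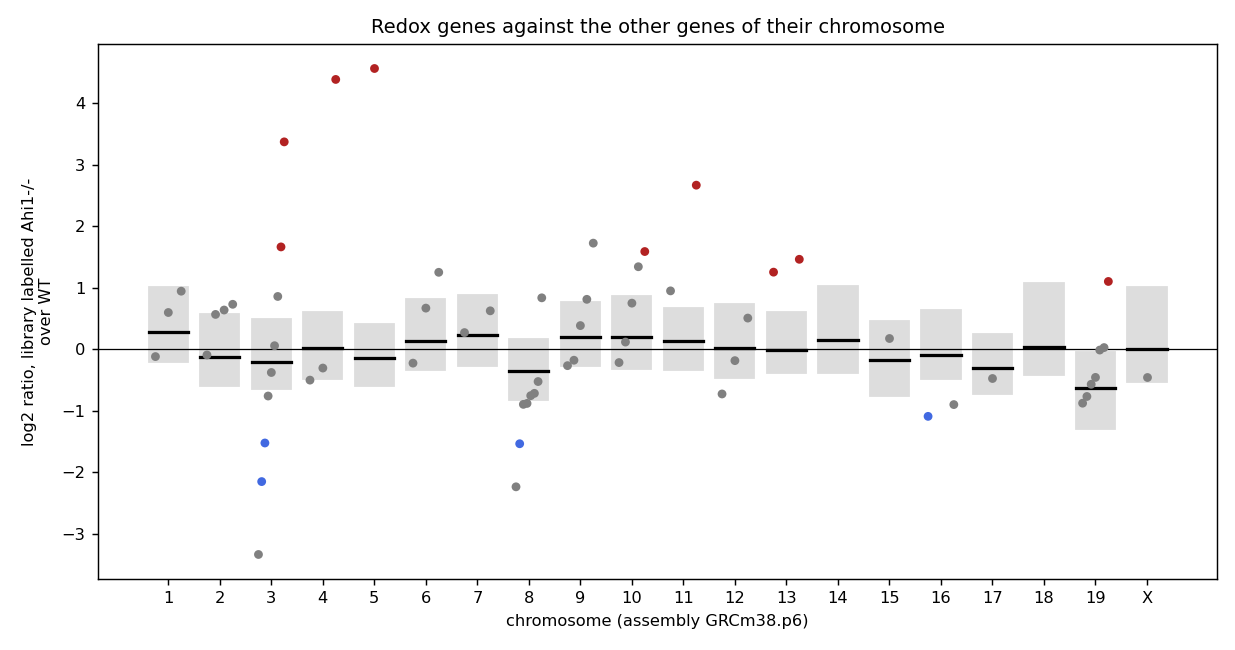
Log2 ratio (y axis) of each measured member (points, red for at least 2-fold higher and blue for at least 2-fold lower) by chromosome (x axis). Grey boxes span the middle 50% of the other measured genes of that chromosome and black lines their median. Chromosomes 8, 17 and 19 have the lowest medians, and Hmox1 on 8 and Gsto1 on 19 lie above their boxes.

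The cultures also differed in cell type markers. Both libraries had fibroblast markers, and 8 of 10 were called higher (summed counts scaled to library size, CPM, of 13534 and 45875). All 10 chondrocyte markers lay below 0 and 9 were lower (2392 and 129 CPM). Of 13 red blood cell markers in the table, all 8 with enough counts were lower (489 and 6.65 CPM). Hba-a2 was at 0 in the library labelled Ahi1-/- (125 and 0 counts). Gata1 (10 and 0) and Hbb-y (1 and 0) were as well, but had few counts in WT. Prdx2, lower as well, is expressed in those cells too. Liver markers were near 0 in both (3.88 and 6.30 CPM, with Alb at 0 and 3 counts), although metallothioneins and several transferases are abundant in liver. Leukocyte (28.4 and 33.1 CPM), endothelial (15.8 and 9.39 CPM) and epithelial markers (44.5 and 68.7 CPM) had low sums. Of those with enough counts, 4 of 5 epithelial markers were higher (Krt18, Epcam, Cdh1 and Krt8), while 1 leukocyte marker was higher and 1 lower of 4, and the 1 endothelial marker was lower. In bulk RNA fewer cells of a type and less RNA per cell cannot be told apart, and the part of these markers in the redox differences was not tested.

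Connected pathways were followed through gene lists. Of 28 other NRF2 targets with enough counts, 4 were higher (14.3%) and 2 lower (7.14%), near the 16.0% and 10.3% of all genes. The median log2 ratio of the list was -0.01. The higher ones were Aox1, an aldehyde oxidase (25 and 134 counts, 5.31-fold), Htatip2 (66 and 326, 4.90-fold), Esd, which frees glutathione from its formaldehyde adduct (1378 and 5444, 3.92-fold), and the epoxide hydrolase Ephx1 (979 and 3486, 3.53-fold). The lower ones, named after their values were seen, were Tkt of the pentose phosphate pathway (10312 and 4982) and Pir (255 and 117). Slc7a11, the cystine importer that feeds glutathione synthesis, also named after its values were seen, was near level (355 and 422, log2 0.24, 0.03 to 0.44). Of 25 other glutathione metabolism genes 3 were higher (12%) and 2 lower (8%), near the same all-gene shares (median -0.07). Besides Esd the higher genes were the gamma-glutamyl enzymes Ggt7 (2.68-fold) and Ggct (2.52-fold). The lower genes were the peptidase Anpep (1119 and 468 counts, 2.41-fold) and Hagh, the glyoxalase that releases glutathione from its lactoyl adduct (400 and 188). Hagh lies on chromosome 17.

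Among 31 genes on a list of other thioredoxin-fold genes, their partners and further redox genes, 5 were higher and 2 lower (median log2 ratio 0.31). These counts are near the all-gene shares of 16.0% and 10.3%. Arrdc4, a relative of Txnip that responds to the same glucose-sensing factors, had 7 and 563 counts, 79.7-fold higher (log2 6.32, 5.26 to 7.64). Arrdc3, another relative, named after its values were seen, went the other way within 2-fold (1431 and 758 counts, log2 -0.93, -1.06 to -0.80). Qsox1, a sulfhydryl oxidase of the secretory pathway, was 5.03-fold higher (1220 and 6196 counts), the mitochondrial methionine sulfoxide reductase Msrb2 4.65-fold (23 and 108), and nucleoredoxin 4.06-fold (Nxn, 1082 and 4437). The others called, named after their values were seen, were Msrb3 on the higher side (1387 and 4197 counts) and the oxidoreductase Ero1b (227 and 106) and sestrin gene Sesn1 (511 and 224) on the lower.

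Of 16 iron handling genes with enough counts, 5 were lower and 1 was higher, against 10.3% and 16.0% of all genes. Cp, which encodes the copper enzyme ceruloplasmin that oxidises iron for export, had 8842 and 1083 counts, 8.24-fold lower (log2 -3.04, -3.13 to -2.95). Heph, its membrane-bound homologue, had 10 and 192 counts (log2 4.25, 3.34 to 5.33). The mitochondrial iron importer Slc25a28, on chromosome 19, was 3.62-fold lower. Also lower, and named after their values were seen, were the iron exporter Slc40a1 (166 and 54) and Pcbp2, an RNA-binding protein that also carries iron (24729 and 9955). The median of the list was -0.13.

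Of 21 zinc and copper handling genes, 2 were higher (9.52%) and 1 was lower (4.76%), under the 16.0% and 10.3% of all genes (median 0.31). The zinc exporter Slc30a1, which like Mt1 is a target of MTF1, had 98 and 249 counts and was 2.52-fold higher (log2 1.33, 0.99 to 1.68), opposite to Mt1. Slc39a8, a zinc and manganese importer, was 2.71-fold higher, and the copper pump Atp7b, on chromosome 8, was 6.05-fold lower (294 and 49 counts). Of 21 other selenoprotein genes and genes of their synthesis, 2 were higher and 1 lower, again under the all-gene shares (median 0.28). That list holds no members of the redox set, so the Gpx and Txnrd genes are not counted in it. Selenop, the secreted selenium carrier, had 71 and 572 counts and was 7.98-fold higher (interval of the log2 ratio 2.64 to 3.37). Selenom of the endoplasmic reticulum was 2.28-fold higher and Selenoh 2.03-fold lower.

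**Figure D5:**
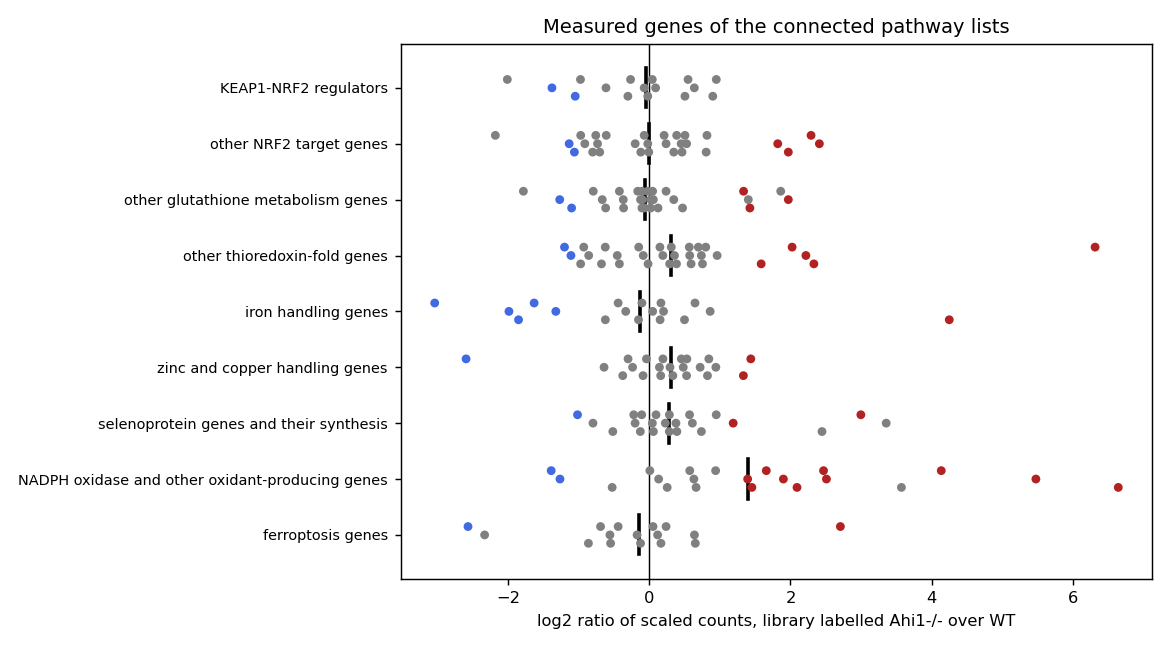
Log2 ratio of scaled counts (x axis) for the measured genes of 9 pathway lists (rows). Points are genes, red for at least 2-fold higher and blue for at least 2-fold lower, and black bars are medians. The iron list holds 5 lower genes and 1 higher. Arrdc4, a relative of Txnip, lies at the far right of the list labelled other thioredoxin-fold genes, which also holds partners and further redox genes. Arrdc3, another relative on that list, lies at -0.93.

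The second deposited table, in FPKM (a level normalised to length and depth), lists 15 of the 66 members, 8 higher and 7 lower in the library labelled Ahi1-/-. All 3578 genes of that table with values above 0 in both libraries were at least 2-fold apart in FPKM, so a place in it follows from the ratio and adds no independent evidence. It holds 12 of the 13 members called here, the exception being Gsto1, and besides them Sod1, Osgin1 and Mt3. Its log2 ratios were lower than those of TPM by a median of 0.16 over that table.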

How the data were processed

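Messenger RNA of 2 libraries was analysed. The authors deposited expected counts for 17260 genes with TPM beside them, and FPKM for 3872 genes in a second table, per the file headers. RSEM 1.2.12, Bowtie2 2.2.5, HISAT2 2.0.4 and build mm8 appear in the submitters' processing notes. The sources used here do not give their roles, the annotation or strand. Expected counts were rounded (19067462 in WT, 20820678 in the library labelled Ahi1-/-) and scaled by TMM in edgeR 4.0.16 (R 4.3.3). Ratios of genes at 0 in 1 library use a floor of 3 counts. Python 3.11.15, numpy 2.4.6, pandas 2.3.3 and scipy 1.17.1 did the rest, and the calculation was tested on simulated data. Chromosomes came from GRCm38.p6, by gene identifier, for all 66 members. Full values are given for members at least 2-fold apart, the most counted of each family and the pathway regulators, and up to 4 genes of each list. Results for 1 gene are not reported here. Members and lists were chosen with earlier results of these data known. Alternatives covered scaling with DESeq2 1.42.0, total counts and upper quartile, TPM, rounding, floor, minimum counts, fold limit and chromosome.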

Additional observations from a re-analysis of the deposited data

How the results depend on the processing

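With a limit of 1.5-fold, 13 members were lower and 20 higher; with 3-fold, 1 was lower and 6 higher. Under the other alternatives run, the lower members numbered 3 to 6 and the higher 7 to 12. No member called here changed sign under any of them. Scaling by total counts lowered the median of all genes by 0.11 on the log2 scale, took Gsto1 inside 2-fold, and added Sod1 and Osgin1 as lower. Upper-quartile scaling added Nfe2l1 as higher. Txnrd2 fell inside 2-fold with a TPM pseudocount of 1 and with chromosome medians subtracted. The latter added Gstm2 and Hmox1 as higher and changed the sign of Cat, Fth1, Gpx4, Gsto2 and Gstp2. The members' median was 0.45 without chromosomes 8, 17 and 19, and -0.11 to 0.11 under the other alternatives. No paired analysis was possible because each genotype had 1 library, and no library could be left out.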

Other observations

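Genes on a list of those whose products make oxidants, part of it lysyl oxidases, were mostly higher in the library labelled Ahi1-/-. Of 17 such genes with enough counts, 10 were at least 2-fold higher and 2 lower. Their median log2 ratio was 1.39, against -0.01 over all genes, and 16.0% of all genes were called higher. Maob, a mitochondrial monoamine oxidase, had 2 counts in WT and 202 in the other library (log2 6.65, 4.77 to 9.70). Cyba, the p22phox subunit that NADPH oxidases need in the membrane, had 29 and 1304 counts and was 44.6-fold higher (log2 5.48, 4.95 to 6.06), although it lies on chromosome 8. Its catalytic partner Nox4, which releases hydrogen peroxide, had 51 and 293 counts (5.69-fold higher, log2 2.51, 2.08 to 2.97). The list also holds the lysyl oxidases, which cross-link collagen and elastin and give off hydrogen peroxide. Of these, Loxl3 and, named after their values were seen, Lox, Loxl1 and Loxl2 are among the 10 higher genes. Loxl3 had 417 and 7401 counts and was 17.6-fold higher (log2 4.14, 3.99 to 4.28). The rest of the 10, also named after their values were seen, had few counts in WT. They were Aoc3 (36 and 201 counts), Cybb (21 and 58) and Duox2 (22 and 70). The lower pair, named after their values were seen, were Loxl4 on chromosome 19 (2807 and 1177 counts) and Noxo1 on chromosome 17 (65 and 25).

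Genes of ferroptosis, a form of death by lipid peroxidation, were level as a list, with 1 of 15 higher, 1 lower and a median of -0.15. Each count is 6.67%, against 16.0% higher and 10.3% lower of all genes. Ptgs2, a cyclooxygenase gene often read as a ferroptosis marker, was 6.53-fold higher (1186 and 7814 counts), and the lipoxygenase Alox15 was 5.94-fold lower (259 and 44).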
